A study of Mus musculus with 12 samples.

Results

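Total RNA of CD4+ T cells was compared between mice carrying 2 copies of the Anaef allele of Rasgrp1, a point mutation, and wild-type (WT/WT) mice, in 4 Anaef libraries (replicates 5 to 8) and 4 WT libraries (replicates 1 to 4). These 8 libraries were chosen by their labels as the total RNA samples, out of 12 samples in all; the other 4 are pools in which ribosome-protected fragments (RPF) were sequenced. All mice were 12 weeks old, on the C57BL6 strain, and the cells were untreated. CD4+ T cells were obtained from lymph nodes with magnetic beads that remove the other cells, and polyadenylated RNA of 20000 cells went into each library. The allele is carried in every cell of the mouse, T cells and the cells around them alike. Which animals stand behind each library is not stated, so the p-values cover the spread between the libraries alone, and that spread may be technical.

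Rasgrp1 is a guanine nucleotide exchange factor: it loads Ras with GTP after the T cell receptor (TCR) has raised diacylglycerol at the membrane, and so starts the Raf, MEK and ERK kinase cascade. In mice, defects of Rasgrp1 are known to disturb T cell development and tolerance, with accumulation of abnormal CD4+ T cells and autoantibodies. Antibody transcripts, which turn out to carry the clearest difference here, are made by B cells and plasma cells: a variable (V) segment, one of many in the genome for each chain, is joined to a constant region that sets the antibody class.

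Of the 4 genes that passed the test, 3 are V segments of the Ig kappa light chain on chromosome 6 (GRCm38). Their sequences are shown because they decide how well a read of 50 bases can tell one segment from another. Each line gives the 3′ 300 bases of the coding sequence in the GENCODE vM21 annotation, 5′ to 3′ on the coding strand. Capitals mark bases that lie in at least 1 window of 50 bases with more than 2 mismatches to every other annotated Ig V coding sequence.
Igkv5-48: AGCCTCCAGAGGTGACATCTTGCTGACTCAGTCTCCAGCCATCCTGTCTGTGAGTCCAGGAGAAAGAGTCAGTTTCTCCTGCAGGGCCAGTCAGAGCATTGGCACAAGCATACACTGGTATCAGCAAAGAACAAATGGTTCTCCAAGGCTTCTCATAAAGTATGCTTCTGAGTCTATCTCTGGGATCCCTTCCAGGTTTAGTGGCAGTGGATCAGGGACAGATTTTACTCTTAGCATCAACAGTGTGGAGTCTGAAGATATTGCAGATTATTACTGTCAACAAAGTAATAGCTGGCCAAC
Igkv4-72: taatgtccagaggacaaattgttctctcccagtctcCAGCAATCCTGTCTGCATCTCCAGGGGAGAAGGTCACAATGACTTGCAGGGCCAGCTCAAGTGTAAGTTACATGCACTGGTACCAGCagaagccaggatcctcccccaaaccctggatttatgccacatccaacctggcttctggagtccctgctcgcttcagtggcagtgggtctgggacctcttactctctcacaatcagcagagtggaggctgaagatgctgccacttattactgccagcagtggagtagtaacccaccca
Igkv6-17: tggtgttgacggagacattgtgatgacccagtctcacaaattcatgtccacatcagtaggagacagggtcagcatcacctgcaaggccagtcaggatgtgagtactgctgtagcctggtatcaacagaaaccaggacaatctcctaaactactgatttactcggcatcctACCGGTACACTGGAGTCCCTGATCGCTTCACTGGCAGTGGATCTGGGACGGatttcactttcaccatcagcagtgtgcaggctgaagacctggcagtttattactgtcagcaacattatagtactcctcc
Igkv5-48 (coding exons at chr6:69726573-69727125, minus strand) had 0 of its 298 windows in common with another gene, and 1 window within 2 mismatches of another V segment. Igkv4-72 (chr6:69226854-69227383, minus strand) shared 49 of 303 windows exactly, or 16.2%, and 87.5% of its windows were within 2 mismatches of another segment; 87 of the 300 bases are capitals. Igkv6-17 (chr6:70371469-70371993, plus strand) shared 41.3% of its windows, 99.3% were within 2 mismatches, and 51 bases are capitals. Reads of Igkv5-48 thus differ from those of other annotated V segments nearly throughout, whereas most reads of Igkv4-72 and Igkv6-17 resemble those of other segments, the closest being Igkv4-79 and Igkv6-25. The 3 segments are not near copies of each other, with 58.9% to 65.9% identity between pairs. Of 59 tested kappa segments with a coding sequence, 54 have at least 1 window found exactly in another gene.

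The libraries held 15326842 to 40046317 counts. Transcripts of CD4 T cells were abundant in each: Cd4 itself stood at 1047 to 2068 CPM (counts scaled to a common, TMM-adjusted library size). Cd3e of the TCR complex was at 532 to 1070 CPM and Cd8b1 of CD8 T cells at 4.65 to 14.8 CPM. Antibody transcripts were present too: Igkc, the kappa constant region, was at 874 to 4827 CPM in WT and 272 to 613 CPM in Anaef. In WT replicates 1 to 3 Igkc was above Cd4. WT replicate 3 was the shallowest and had 27.8% mitochondrial and 28.2% pseudogene counts, against 16.4% to 19.4% and 21.1% to 22.3% in the other WT libraries. Anaef replicates 6 and 8 had 25.0% and 23.7% mitochondrial counts. Across genes, the log2 CPM of WT replicates 1, 2 and 4 correlated with each other at r = 0.953 to 0.962 and with WT replicate 3 at 0.906 to 0.910. Anaef replicate 7 was closer to WT replicates 1, 2 and 4 (r = 0.947, 0.937 and 0.952) than to any other Anaef library (0.915 to 0.928). With WT replicate 3 it correlated at 0.907. Anaef replicate 6 correlated with the other Anaef libraries at 0.887 to 0.915. These correlations are a description across genes, which are not independent replicates. Rasgrp1 was read in every library, at 470, 479, 610 and 453 CPM in WT replicates 1 to 4 and 607, 683, 460 and 576 CPM in Anaef replicates 5 to 8. The ranges overlapped, and the log2 fold change was 0.21 (SE 0.16, adjusted p = 0.945, edgeR). The allele is a point mutation, so the transcript level does not check the genotype.

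The comparison asks which transcripts of CD4+ T cells change with the Anaef genotype. Antibody transcripts fell in the Anaef libraries: the IgA heavy chain (Igha) was 3.99-fold lower, and the pooled counts of the 3 kappa V segments were 52.9-fold to 1257-fold lower, the last on 2 counts in Anaef. No transcript rose past the threshold. Nearly all other Ig genes leaned the same way without passing, while TCR genes and protein-coding genes were centred on 0. TMM scaling itself sets the bulk of genes near 0, so the centring of protein-coding genes is no separate result. By edgeR's quasi-likelihood test with Benjamini-Hochberg adjustment at 0.05, 4 of 17876 genes tested were lower (0.0224%) and 0 were higher (0%). At an unadjusted p under 0.05 there were 488 higher (2.73%) and 516 lower (2.89%). DESeq2 called 42 higher and 124 lower, and limma-voom called 0 higher and 2 lower. The 4 Anaef libraries lay above all 4 WT libraries for 283 genes (1.58%) and below them for 359 (2.01%), so that 642 genes (3.59%) did not overlap in either direction. These shares over all genes are the background for the counts given for each class and list.

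Split by class, 159 of the 163 Ig genes tested had a fold change below 0, against 49.3% of all genes, with a median log2 fold change of -3.17 against 0.01 over all genes. At an unadjusted p under 0.05, 113 of them were lower and 1 was higher, and in 45 the libraries did not overlap, all lower in Anaef. Many Ig genes can share reads, so these are not separate results. Ig genes took 0.875%, 1.87%, 0.354% and 0.378% of counts in WT replicates 1 to 4. In Anaef replicates 5 to 8 they took 0.283%, 0.194%, 0.172% and 0.192%. WT replicates 3 and 4 were thus much nearer to the Anaef libraries than WT replicates 1 and 2. Of 218 TCR genes, 127 were above 0 and 91 below, with a median of 0.08, 4 higher and 0 lower at an unadjusted p under 0.05. Protein-coding genes numbered 11698, with 6166 above and 5532 below 0, a median of 0.02, and 363 higher and 297 lower at that p. Pseudogenes and other noncoding genes had medians of -0.01 and -0.03. Of the 166 genes that DESeq2 called, 59 were Ig genes (all lower), 75 were protein-coding (34 higher, 41 lower) and 32 belonged to other classes.

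**Figure D1:**
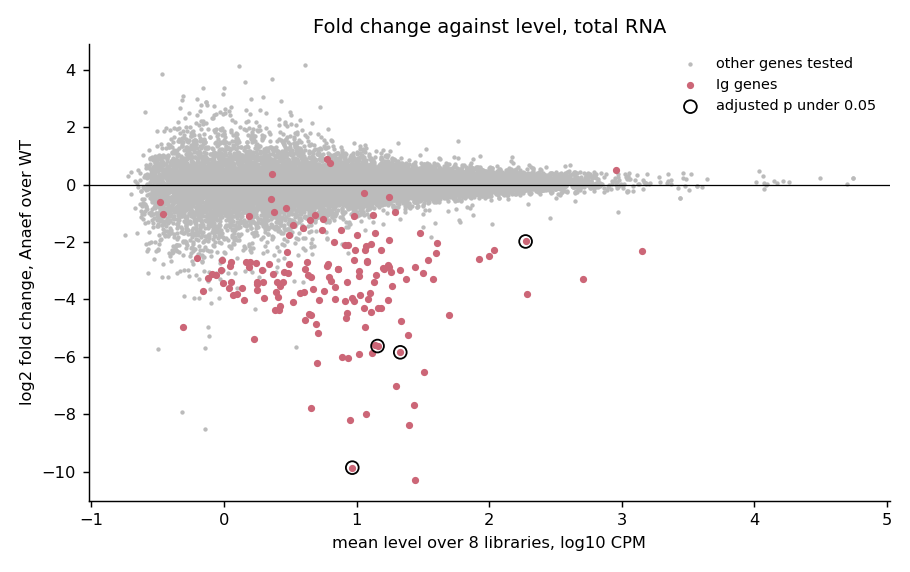
Log2 fold change of Anaef over WT (vertical axis) against the mean level over the 8 libraries (horizontal axis, log10 CPM), 1 point per gene tested. Ig genes, in red, lie below 0 in 159 of 163 cases, and the 4 genes past an adjusted p of 0.05 (black circles) are all among them; the spread of the other genes, in grey, narrows with level.

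Igkv5-48 was read at 45.5, 7.51, 14.6 and 6.53 CPM in WT replicates 1 to 4 and at 0.0528, 0, 0.0229 and 0 CPM in Anaef replicates 5 to 8. Every WT library was far above every Anaef library, where the segment was all but missing. The groups together had 2402 and 2 counts, which puts WT over Anaef at 1257-fold (95% interval from counting 347.5 to 10380, adjusted p = 0.0268). Without WT replicate 1 the ratio was 525.4, and without Anaef replicate 5, which leaves 1 Anaef count, it was 2138. Such intervals take in counting error alone: the reads carry no molecular identifiers and are not independent molecules.

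Igkv4-72 had 19.0, 52.4, 29.6 and 11.9 CPM in WT and 0.317, 0.241, 0.435 and 1.23 CPM in Anaef. It fell by 5.62 on the log2 scale (SE 0.65, adjusted p = 0.0268), with 3795 and 75 counts, a ratio of 52.9 that was 31.2 without WT replicate 2 and 89.7 without Anaef replicate 8. Igkv6-17 had 42.0, 73.6, 34.9 and 17.7 CPM in WT and 0.106, 1.20, 1.28 and 0.1996 CPM in Anaef, and fell by 5.84 (SE 0.74, adjusted p = 0.0436). For both segments the lowest WT library was well above the highest Anaef library. Igha, which has no window of 50 coding bases in common with another gene (chromosome 12, 113254830 to 113260236), differed less in fold but had the smallest SE of the 4. It was at 272, 306, 375 and 249 CPM in WT and 78.5, 103, 51.6 and 71.5 CPM in Anaef, a ratio of 3.99 (SE 0.22 on the log2 scale, adjusted p = 0.0268). In bulk RNA, fewer cells of a type and less RNA per cell cannot be told apart.

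The closest relatives of the 3 segments were lower in counts too and were not called. Igkv5-45, with 462 counts in WT and 3 in Anaef, did not pass the filter on low counts. Igkv4-79 was at 10.6 ± 8.59 CPM in WT and 1.49 ± 1.59 in Anaef (SD, n = 4 each; log2 fold change -2.82, adjusted p = 0.690). Igkv6-25 was at 18.7 ± 14.4 and 2.06 ± 2.45 CPM (-3.17, adjusted p = 0.778). With reads shared between such pairs, the counts of Igkv4-72 and Igkv6-17 may include some of their relatives.

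The RPF pools, another assay with other pools of cells, read the same 4 genes. On library size alone, Igha had 6737 and 6777 CPM in WT pools 1B and 2B and 3414 and 1110 CPM in Anaef pools 3B and 4B. Igkv5-48 had 207 and 111 CPM in the WT pools and 50.2 and 13.9 in the Anaef pools, that is 174 and 40 counts where total RNA of the Anaef libraries held 2 in all. Igkv4-72 had 398 and 132 against 115 and 33.8 CPM, and Igkv6-17 had 301 and 150 against 107 and 40.1 CPM. Each of the 4 was lower in both Anaef pools than in either WT pool, and none was missing from the Anaef pools. No gene passed without Anaef replicate 5, 7 or 8 (0 by edgeR in each, with 1096, 1488 and 1123 genes at an unadjusted p under 0.05), 2 passed without Anaef replicate 6, and 2, 1, 3 and 2 without WT replicates 1 to 4. Igkv5-48 passed without any 1 of the WT libraries, and Igha without Anaef replicate 6.

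Of the 11 constant regions tested (12 listed), which give the antibody class, 10 were below 0 (49.3% of all genes were). For 5 the groups did not overlap, all lower (2.01% of all genes). The median log2 fold change of the 11 was -2.33, between -2.73 and -1.97 over the alternatives. DESeq2 called 5 of them, all lower, where edgeR called Igha alone: Igha, Ighg2b, Igkc, Iglc2 and Iglc3. Ighm, the heavy chain of IgM, was the exception: it was at 712, 797, 829 and 645 CPM in WT and 1164, 1075, 698 and 1276 CPM in Anaef (log2 fold change 0.50, SE 0.19, adjusted p = 0.840). Of the Anaef libraries 3 were above all WT libraries, and Anaef replicate 7 was within the WT range. Ighd, the heavy chain of IgD that naive B cells carry together with IgM, overlapped at 10.7 to 30.7 and 8.50 to 18.5 CPM.

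The IgG classes varied widely between replicates of 1 genotype. Ighg2b was at 486, 775, 54.3 and 125 CPM in WT and 36.1, 16.01, 31.7 and 18.1 CPM in Anaef (-3.82, SE 0.74, adjusted p = 0.289 with edgeR and 0.00103 with DESeq2), with no overlap. Ighg2c reached 1100 and 2344 CPM in WT replicates 1 and 2, and was at 114 and 116 CPM in WT replicates 3 and 4, where the Anaef libraries had 215, 46.8, 70.1 and 47.6 CPM (-3.28, SE 0.97, adjusted p = 0.681). Anaef replicate 5 was thus above WT replicates 3 and 4. Ighg1 was at 40.0 to 90.7 CPM in WT and at 0.687, 51.4, 11.7 and 0.0570 CPM in Anaef. Ighg3 rested on 1 library of each genotype, WT replicate 2 at 181 CPM and Anaef replicate 5 at 57.7 CPM, with 0.0285 to 0.521 CPM in the other 6. Ighe, the IgE heavy chain, had 12 counts in WT and 0 in Anaef and was not tested.

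Among light chains, Igkc, the constant region of kappa, was at 2006, 4827, 1808 and 874 CPM in WT and 589, 613, 272 and 419 CPM in Anaef (-2.33, SE 0.47, adjusted p = 0.298 with edgeR and 0.000216 with DESeq2). The groups did not overlap. The lambda constant regions Iglc2 and Iglc3 did not overlap either (-2.76 and -3.77, adjusted p = 0.327 and 0.669), while Iglc1 did, at 7.12 to 68.1 CPM in WT and 0.0570 to 9.82 CPM in Anaef. Per length of transcript, Igkc was the most abundant of the constant regions in both groups, at 4471 RPKM (CPM per kilobase of exon) in WT and 890 RPKM in Anaef. The next in WT was Ighg2c at 693 RPKM and in Anaef Ighm at 558 RPKM.

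**Figure D2:**
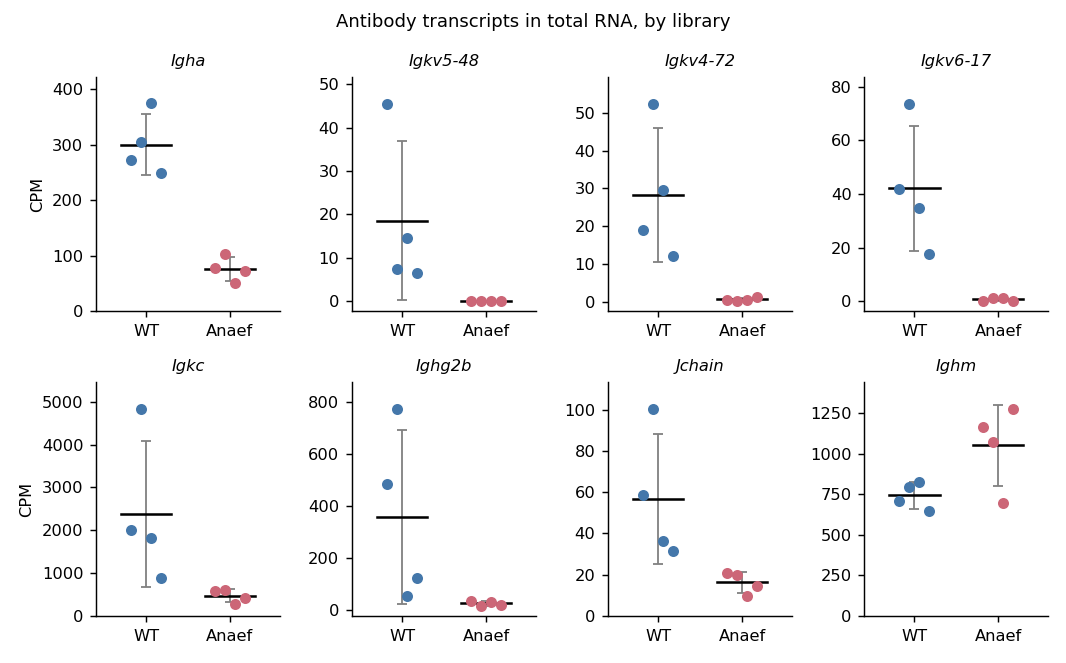
CPM in each library (vertical axes) of 8 antibody genes, WT in blue and Anaef in red, with the mean (black line) and SD (grey bar) of 4 libraries. Igha, the 3 kappa segments, Igkc, Ighg2b and Jchain do not overlap between the genotypes, whereas Ighm lies at 645 to 829 CPM in WT and 698 to 1276 CPM in Anaef.

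Over all V segments of heavy and light chains, 143 of 348 passed the filter on low counts, and 140 of these were below 0. At an unadjusted p under 0.05, 98 were lower and 0 higher, and 37 did not overlap, all lower. Among all genes 49.3% were below 0, 2.89% were lower at that p and 2.01% were lower without overlap. DESeq2 called 47 V segments, all lower. Their summed level was 855 to 6130 CPM in WT and 279 to 547 CPM in Anaef. Of 160 kappa segments, 97, 103, 58 and 80 had at least 3 counts in WT replicates 1 to 4 and 54, 38, 53 and 53 in Anaef replicates 5 to 8. Of 185 heavy chain segments, 112, 119, 66 and 96 did so in WT and 58, 54, 73 and 53 in Anaef. For kappa every WT library was above every Anaef library; for the heavy chain WT replicate 3, at 66, was below Anaef replicate 7, at 73.

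The 5 largest kappa segments took 48.6%, 42.7%, 60.2% and 39.6% of the kappa V counts in WT and 56.2%, 81.0%, 72.3% and 56.9% in Anaef. For the heavy chain the shares were 24.5%, 23.3%, 33.8% and 42.9% in WT and 43.3%, 50.6%, 53.2% and 57.4% in Anaef, higher in each Anaef library than in any WT library. Which segment was largest differed from library to library: Igkv1-117, Igkv1-110, Igkv3-10 and Igkv1-110 in WT replicates 1 to 4, and Igkv6-15, Igkv1-117, Igkv1-110 and Igkv6-32 in Anaef replicates 5 to 8. Fewer counts give fewer segments with 3 counts, and kappa V counts ran from 8289 to 151083 in WT and from 5137 to 10436 in Anaef; the part of this depth in the number of segments was not tested.

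**Figure D3:**
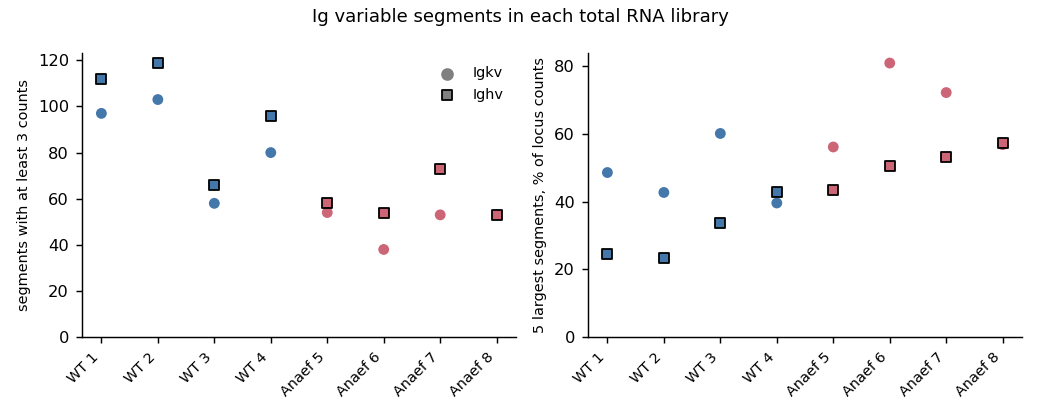
For each library, the number of Ig V segments with at least 3 counts (left) and the percent of V counts in the 5 largest segments (right), for kappa (circles) and heavy chain (outlined squares), WT in blue and Anaef in red. WT libraries held 58 to 103 kappa segments and Anaef libraries 38 to 54; in Anaef replicate 8 the marks of both chains coincide.

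Most genes of the cells that make antibody had fold changes below 0. None of them passed with edgeR, while DESeq2 called 3 plasma cell genes, all lower: Jchain (adjusted p = 0.00201), Mzb1 (0.00126) and Pou2af1 (0.0475). Of 15 tested plasma cell genes (17 listed), 13 were below 0, 4 were lower and 0 higher at an unadjusted p under 0.05 and 2 did not overlap, both lower. The median was -0.49, and -1.02 without WT replicate 3 and Anaef replicate 6. Among all genes 49.3% were below 0, 2.89% were lower at that p and 2.01% were lower without overlap. Jchain, which links IgA and IgM into polymers, was at 58.7, 100.4, 36.4 and 31.4 CPM in WT and 20.7, 20.002, 9.58 and 14.6 CPM in Anaef (-1.81, SE 0.39, adjusted p = 0.327). Mzb1, a chaperone of antibody assembly, had 215 counts in WT and 5 in Anaef, with 0 in Anaef replicates 5 and 6 (adjusted p = 0.298). Both had no overlap. Pou2af1, a coactivator of antibody gene transcription, was at 198, 237, 71.5 and 104 CPM in WT and 42.5, 65.1, 83.7 and 44.1 CPM in Anaef (-1.38, SE 0.37, adjusted p = 0.594), where WT replicate 3 was below Anaef replicate 7. Xbp1 and Prdm1, regulators of the plasma cell programme that T cells express as well, had log2 fold changes of -0.42 and -0.49 with overlap. Edem1, of the degradation of misfolded glycoproteins, was the most abundant gene of the list at 159 ± 29.8 and 187 ± 39.2 CPM. The summed level of the list was 398 to 865 CPM in WT and 378 to 526 CPM in Anaef.

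Of 22 tested B cell genes (25 listed), 21 were below 0, 8 were lower and 0 higher at an unadjusted p under 0.05, and 2 did not overlap, both lower. Their median was -1.36, and -2.36 without Anaef replicate 7. Among all genes 49.3% were below 0, 2.89% were lower at that p and 2.01% were lower without overlap. Anaef replicate 7 stood out within its group: Cd79a, of the B cell receptor, was at 6.78 CPM there and at 0.106, 0.138 and 1.48 CPM in Anaef replicates 5, 6 and 8, where WT had 7.62, 9.21, 1.66 and 4.17 CPM. Cd74, the chaperone of MHC class II molecules, stood at 49.6 CPM in Anaef replicate 7, 1.55 to 20.1 CPM in the other Anaef libraries and 33.3 to 78.0 CPM in WT. Bank1, a B cell scaffold protein, and Ms4a1, which encodes CD20, had no overlap (-1.86 and -0.35, adjusted p = 0.795 and 0.942). The summed level of the B cell list was 180 to 295 CPM in WT and 103 to 226 CPM in Anaef. The part of B and plasma cells among the sorted cells in the Ig result was not tested.

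No marker of other cells that bead isolation could leave passed with edgeR or DESeq2. Of 10 tested myeloid and dendritic genes (15 listed), 7 were below 0. The list median was -0.75, but -0.07 where a mean of at least 50 counts was asked for. At an unadjusted p under 0.05, 2 genes were lower (2.89% of all genes) and 0 higher. These 2 did not overlap (2.01% of all genes). They were Itgam, the integrin CD11b, at 13.9 to 17.2 CPM in WT and 7.75 to 11.5 CPM in Anaef, and Mpeg1, a pore protein of phagocytes, at 1.34 to 2.55 and 0.172 to 1.27 CPM; Cd14 had 0 counts in all libraries. The summed levels of this list overlapped at 106 to 144 and 92.7 to 151 CPM. For CD8, NK and gamma-delta T cells 9 of 13 tested genes (17 listed) were below 0, with a median of -0.42, 1 lower and 0 higher at that p, and summed levels of 46.7 to 60.3 and 40.6 to 52.6 CPM. Only Pecam1 and Vwf of the 11 stromal and endothelial genes passed the filter, with overlapping sums of 151 to 164 and 152 to 223 CPM for that list, and none of the erythroid list did, with 0.0218 to 7.51 CPM in WT and 0 to 0.206 CPM in Anaef in sum.

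Outside the Ig genes, the 20 protein-coding genes nearest to the threshold, 10 in each direction, did not pass with edgeR. Each of them had libraries that do not overlap, as had 3.59% of all genes tested. All 20 were called by DESeq2, which called 166 genes out of 26705 fitted, and 0 by limma-voom. The 20 were picked by their p from these same 8 libraries, so these counts are no separate support for them. On the higher side, Arhgap35, a GTPase-activating protein, was at 29.4, 31.0, 24.1 and 30.5 CPM in WT and 58.2, 65.2, 44.8 and 49.5 CPM in Anaef (0.92, SE 0.17, adjusted p = 0.289). Mapkap1, the Sin1 subunit of the kinase complex mTORC2, was at 33.8 to 38.3 CPM in WT and 53.5 to 72.6 CPM in Anaef (0.71, SE 0.16, adjusted p = 0.327). Bcl9, a coactivator of beta-catenin, was at 45.6 to 63.6 and 84.1 to 160 CPM (1.01, SE 0.21, adjusted p = 0.302).

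Slc16a5, of the monocarboxylate transporter family, had the tightest groups of these, with 55.1 to 61.6 CPM in WT and 83.1 to 91.3 CPM in Anaef (0.56, SE 0.13). Fcho2, of clathrin-mediated endocytosis, was at 25.8 ± 2.13 and 42.0 ± 3.75 CPM, and Osgepl1, an enzyme of tRNA modification in mitochondria, at 13.6 ± 2.63 and 25.1 ± 2.18 CPM. Myo6, an unconventional myosin, was at 6.51 ± 1.38 and 16.8 ± 5.97 CPM. Laptm4b, a lysosomal membrane protein, was at 0.912 ± 0.314 and 5.40 ± 2.56 CPM (2.54, SE 0.48). The orphan receptor gene Gpr45 was low in both groups, at 0 to 0.0791 and 0.344 to 0.884 CPM, and the predicted gene Gm16867 was at 15.0 ± 0.663 and 28.6 ± 4.94 CPM.

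Among the genes that lay lower, Phka1, which encodes a subunit of phosphorylase kinase, had 50, 26, 14 and 22 counts in WT and 0 in each Anaef library. Taking 3 counts for the Anaef group as the floor, it was at least 39.06-fold lower (adjusted p = 0.145). Slco5a1, of the organic anion transporter family, had 77 counts in WT and 1 in Anaef (adjusted p = 0.152), or 80.6-fold (interval from counting 14.04 to 3223). Ttc30b, of intraflagellar transport, had 202 and 3 counts, and Tppp, a tubulin-binding protein, 193 and 6. These genes are read from few molecules in WT, under 4 CPM in each library. In RPF pools WT 1B, WT 2B, Anaef 3B and Anaef 4B, Phka1 had 3, 2, 1 and 1 counts. Slco5a1 had 0, 0, 0 and 1 counts there, Tppp 2, 3, 2 and 0, and Ttc30b 18, 15, 10 and 18. On library size alone Ttc30b was not lower in the Anaef pools, at 2.57 and 3.71 CPM in WT and 2.89 and 6.27 CPM in Anaef.

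Asb18, of the SOCS box family, and Gabrr2, a subunit of a GABA receptor, had higher levels in total RNA. Asb18 was at 27.3, 30.5, 37.8 and 23.6 CPM in WT and 12.3, 15.6, 13.3 and 10.3 CPM in Anaef (-1.21, SE 0.22, adjusted p = 0.275), and Gabrr2 at 17.2 ± 3.38 and 7.77 ± 0.886 CPM (-1.14, SE 0.23, adjusted p = 0.298). Grasp, a scaffold protein, was at 3.28 to 9.65 and 0.733 to 1.48 CPM, and Lurap1, an adaptor protein, at 1.81 to 6.64 and 0 to 0.435 CPM. Mzb1 and Jchain, given above, complete the lower side. In the RPF pools Asb18 and Lurap1 had 0 counts throughout, as did Osgepl1 and Gpr45 of the higher side. Gabrr2 was at 10.4 and 16.3 CPM in WT pools 1B and 2B and 14.1 and 13.9 CPM in Anaef pools 3B and 4B. Grasp was at 2.43 and 2.47 against 3.75 and 2.79 CPM, and Mzb1 at 126 and 25.0 against 27.4 and 5.93 CPM. Jchain was at 1447 and 801 against 472 and 147 CPM.

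The Ras-ERK pathway, in which Rasgrp1 acts, was balanced: of 30 genes tested 15 were above and 15 below 0, with a median of 0.02, and none passed with edgeR or DESeq2. At an unadjusted p under 0.05, 2 were higher and 1 was lower (2.73% and 2.89% of all genes). The libraries did not overlap for 1 gene in each direction (1.58% of all genes higher and 2.01% lower). Upstream of Rasgrp1, Plcg1, the phospholipase that makes diacylglycerol, was at 183 ± 20.4 and 174 ± 19.6 CPM (SD, n = 4 each), and Prkcq, a kinase that diacylglycerol activates, at 260 ± 7.99 and 268 ± 17.2 CPM. Dgka and Dgkz, which remove diacylglycerol, had log2 fold changes of 0.16 and 0.22; WT replicate 3 had 1666 CPM of Dgka and the other WT libraries 1002 to 1053.

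Among the other exchange factors, Sos1, which is recruited by adaptor proteins, was at 57.1, 44.4, 71.9 and 48.5 CPM in WT and 71.9, 88.6, 65.5 and 89.2 CPM in Anaef (0.51, SE 0.19, adjusted p = 0.840). WT replicate 3 was above Anaef replicate 7. Rasgrp3, the relative used by B cells, was at 2.00 to 8.62 CPM in WT and 0.627 to 2.27 CPM in Anaef (-1.98, SE 0.61, adjusted p = 0.700). Of the Ras genes, Nras was at 244 ± 26.9 and 258 ± 39.6 CPM and Hras at 5.13 ± 2.06 and 3.76 ± 1.45 CPM. Per length, WT cells had 45.7 RPKM of Nras and 1.37 of Hras, and Anaef cells 48.4 and 1.01.

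The GTPase-activating proteins, which switch Ras off, differed in sign. Rasa2 was at 81.3 to 87.9 CPM in WT and 51.5 to 76.4 CPM in Anaef, and Rasal3, abundant in lymphocytes, at 410 to 453 and 468 to 552 CPM. Both lacked overlap, with log2 fold changes of -0.28 (SE 0.16) and 0.20 (SE 0.12) and adjusted p of 0.915 and 0.916. Nf1, another of this class, was at 19.2 ± 3.55 and 15.2 ± 2.70 CPM. Of the kinases, Araf and Braf had log2 fold changes of 0.15 and -0.10, Map2k1, which encodes MEK, 0.33, and Mapk3, which encodes an ERK kinase, -0.09. Rps6ka1, a kinase that ERK activates, was at 49.0 ± 6.68 and 39.7 ± 5.41 CPM. Of the 95% intervals of the 30 fold changes, 25 lay within 2-fold in both directions.

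Of 25 tested ERK-responsive genes, transcripts known to follow ERK activity (29 listed), 14 were above and 11 below 0, with a median of 0.03. At an unadjusted p under 0.05, 1 was higher and 2 were lower (2.73% and 2.89% of all genes). The libraries of 1 gene did not overlap (3.59% of all genes). Egr1, an early growth response factor, was at 95.7, 93.6, 91.2 and 106 CPM in WT and 82.8, 60.1, 57.2 and 80.2 CPM in Anaef (-0.46, SE 0.16, adjusted p = 0.836), each Anaef library below each WT library. Its corepressor Nab2 was at 83.6, 84.1, 103 and 99.8 CPM in WT and 51.8, 32.8, 91.1 and 52.2 CPM in Anaef (-0.70, SE 0.27, adjusted p = 0.840), with Anaef replicate 7 within the WT range. Dusp1, a phosphatase of MAP kinases, was at 11.5 to 17.6 CPM in WT and at 24.4, 47.0, 17.2 and 17.1 CPM in Anaef (0.83, SE 0.34), and 0.39 without Anaef replicate 6. Egr2, Nr4a2 and Nr4a3, which TCR signals induce, had log2 fold changes of -0.42, -1.31 and 0.40, and Myc of 0.38, each with overlap. Zfp36, an RNA-binding protein and the most abundant of the list, was at 379 ± 49.1 and 394 ± 61.0 CPM.

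The mTORC1 pathway, which controls growth and translation, had 8 genes above and 17 below 0 of 25 tested, with a median of -0.09. At an unadjusted p under 0.05, 1 gene was higher and 0 were lower (2.73% and 2.89% of all genes). That gene was Rps6kb2, a kinase of ribosomal protein S6, at 20.1 to 28.6 CPM in WT and 28.5 to 35.7 CPM in Anaef (0.48, SE 0.18, adjusted p = 0.840). Slc7a5, the transporter of large neutral amino acids, was at 17.001, 15.02, 24.8 and 19.4 CPM in WT and 14.9, 12.8, 14.5 and 12.8 CPM in Anaef (-0.47, SE 0.22, adjusted p = 0.887), just without overlap. Rheb, the GTPase that activates the complex, was at 12.0 ± 3.60 and 8.85 ± 2.63 CPM.

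**Figure D4:**
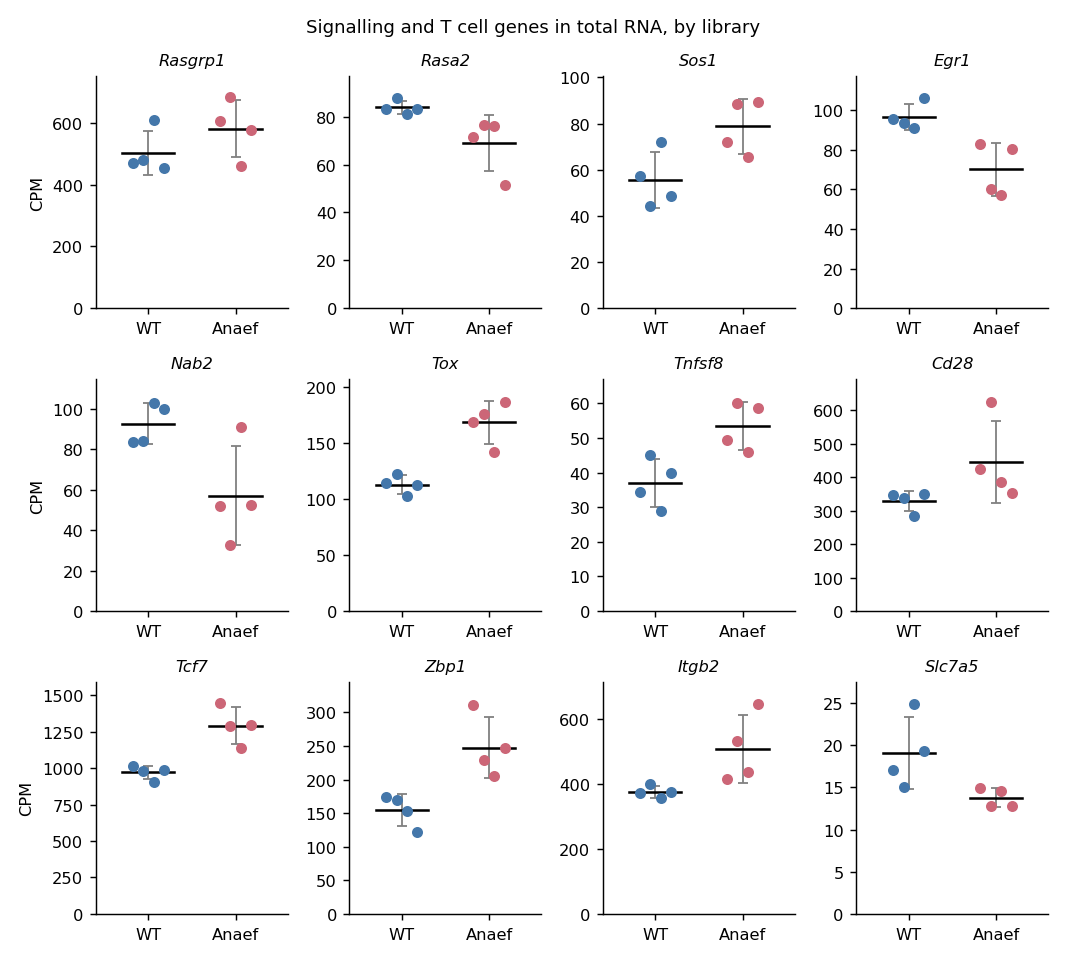
CPM in each library (vertical axes) of 12 signalling and T cell genes, WT in blue and Anaef in red, with the mean (black line) and SD (grey bar) of 4 libraries. Tox, Tnfsf8, Cd28, Tcf7, Zbp1 and Itgb2 are higher and Egr1, Rasa2 and Slc7a5 lower in every Anaef library than in any WT library; Rasgrp1, Sos1 and Nab2 overlap.

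Most genes of T cell identity and help had small fold changes above 0. None passed with edgeR, and DESeq2 called 1 of them, Tox, as higher. Of 21 CD4 identity genes 16 were above 0 (50.7% of all genes were), and the median was 0.20. At an unadjusted p under 0.05, 3 were higher (2.73% of all genes) and 0 lower. The same number lay in all Anaef libraries above all WT libraries (1.58% of all genes). The summed level of the list was 5725 to 6075 CPM in WT and 6085 to 7533 CPM in Anaef. On library size alone the list median was 0.12. Themis, a regulator of TCR signalling, was at 123, 112, 114 and 123 CPM in WT and 152, 156, 133 and 180 CPM in Anaef (0.40, SE 0.13, adjusted p = 0.816). Cd28, the costimulatory receptor, was at 346, 337, 283 and 349 CPM in WT and 423, 624, 384 and 353 CPM in Anaef, and Cd3e at 532 to 666 and 681 to 1070 CPM. All 3 lacked overlap, and Anaef replicate 6, with 25.0% mitochondrial counts, was highest for Cd28, Cd3e and Cd4.

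Costimulatory and inhibitory receptors and their ligands had 20 of 24 tested genes above 0 and a median of 0.38. At an unadjusted p under 0.05, 4 were higher (2.73% of all genes were) and 0 lower. The libraries did not overlap for 2, both higher, against 1.58% of all genes. Without WT replicate 3 and Anaef replicate 6 the median was 0.145. Tnfsf8, the ligand of CD30, was at 34.3, 45.1, 28.9 and 39.8 CPM in WT and 49.5, 60.2, 45.8 and 58.5 CPM in Anaef (0.53, SE 0.18, adjusted p = 0.836), without overlap. Cd40lg, through which T cells help B cells, was at 118, 104, 127 and 92.8 CPM in WT and 147, 189, 123 and 173 CPM in Anaef (0.51, SE 0.17, adjusted p = 0.796). WT replicate 3 was above Anaef replicate 7. Cd27, the most abundant of the list, was at 587 ± 81.5 and 692 ± 82.9 CPM, and Cd96, a receptor for nectins, at 157 ± 19.8 and 203 ± 36.6 CPM (0.37, SE 0.16).

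Follicular and peripheral helper T cell genes had 18 of 20 tested above 0 (22 listed), with a median of 0.49, and 0.29 to 0.58 over the alternatives. At an unadjusted p under 0.05, 6 were higher and 0 lower, and 2 had no overlap. Over all genes 50.7% were above 0, 2.73% were higher at that p and 1.58% had all Anaef libraries above WT. The markers Cxcr5 and Pdcd1 had log2 fold changes of 0.20 and 0.32 with overlap. Izumo1r and Batf lay below 0, at -0.07 and -0.06. Some of these genes stand in the receptor list too, Cd40lg and Tnfsf8 among them. Tox, a factor of helper and chronically stimulated T cells, was at 114, 122, 102 and 112 CPM in WT and 169, 175, 141 and 186 CPM in Anaef (0.58, SE 0.14, adjusted p = 0.401), the lowest Anaef library above the highest WT library; DESeq2 gave an adjusted p of 0.00572. Bcl6, the master regulator of follicular helper cells, was at 31.1 to 44.9 CPM in WT and 36.4 to 57.0 CPM in Anaef (0.41, SE 0.21, adjusted p = 0.898). Icos, a costimulatory receptor of these cells, was at 205 CPM in Anaef replicate 6, 118 to 119 CPM in the other Anaef libraries and 62.7 to 124 CPM in WT. Il21, their cytokine, was at 3.62 ± 2.31 and 6.92 ± 4.33 CPM. Sostdc1, a secreted antagonist, was at 0 to 1.37 CPM in WT and at 0.687, 5.78, 1.79 and 11.03 CPM in Anaef (2.92, SE 1.00, adjusted p = 0.836).

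Anergy and chronic stimulation genes had 11 of 18 tested above 0 and a median of 0.13; besides Tox, Tigit, an inhibitory receptor, was at 17.3 ± 9.16 and 27.6 ± 7.27 CPM, and Cblb, a ubiquitin ligase of tolerance, at 221 ± 23.5 and 245 ± 40.8 CPM. Regulatory T cell genes had 9 of 13 above 0 and a median of 0.16. At an unadjusted p under 0.05, 2 were higher and 0 lower (2.73% and 2.89% of all genes). Foxp3, which defines these cells, was at 28.4, 25.4, 39.7 and 27.3 CPM in WT and 19.0, 45.2, 22.3 and 52.3 CPM in Anaef (0.20, SE 0.33). Anaef replicates 6 and 8 were above and replicates 5 and 7 below all WT libraries. Lrrc32, which presents latent TGF-beta on them, was at 0 to 0.827 and 0.321 to 5.09 CPM (2.43, SE 1.04, adjusted p = 0.871), and Ikzf4 at 22.5 ± 5.62 and 33.8 ± 10.1 CPM.

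Th1, Th2 and Th17 genes had 6 of 10 tested above 0 (16 listed), with a median of 0.26 that was -0.14 without Anaef replicate 6. Gata3, the Th2 regulator, was at 14.0, 17.3, 13.0 and 14.0 CPM in WT and 20.9, 23.5, 17.1 and 21.4 CPM in Anaef (0.51, SE 0.20, adjusted p = 0.840). Naive T cell genes had 5 of 14 above 0 and a median of -0.03, yet 2 had no overlap, both higher (1.58% of all genes). These were Tcf7, a transcription factor of naive and self-renewing T cells, at 1013, 979, 908 and 991 CPM in WT and 1448, 1287, 1136 and 1300 CPM in Anaef (0.41, SE 0.12, adjusted p = 0.690 with edgeR and 0.0446 with DESeq2), and Foxo1, a factor of T cell quiescence, at 413 to 483 and 488 to 713 CPM (0.39, SE 0.14, adjusted p = 0.840). Il7r, the survival cytokine receptor, was at 417 ± 32.9 and 355 ± 28.9 CPM.

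Activated and memory T cell genes had 8 of 15 tested above 0 and a median of 0.01. Cd44, an adhesion receptor that antigen-experienced T cells raise, was at 56.2, 57.1, 44.5 and 38.5 CPM in WT and 78.4, 72.0, 52.8 and 70.2 CPM in Anaef (0.48, SE 0.19, adjusted p = 0.840), with Anaef replicate 7 inside the WT range. Trafficking receptors had 10 of 17 above 0 and a median of 0.14. Itgb2 and Itgal, the chains of the integrin LFA-1, both lacked overlap: Itgb2 was at 356 to 399 CPM in WT and 417 to 647 CPM in Anaef (0.44, SE 0.16, adjusted p = 0.840), and Itgal at 278 to 299.97 and 316 to 357 CPM (0.22, SE 0.11, adjusted p = 0.908). Cxcr4, a chemokine receptor, was at 20.8 to 37.1 and 9.88 to 21.6 CPM (-0.78, SE 0.29, adjusted p = 0.840). Cytokine receptors had 12 of 17 above 0, with a median of 0.13 and 1 lower at an unadjusted p under 0.05, Il10ra, a chain of the IL-10 receptor, at 2.85 to 6.88 and 0.627 to 3.80 CPM.

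Interferon-stimulated genes had 11 of 19 tested above 0 and a median of 0.16. At an unadjusted p under 0.05, 3 were higher and 0 lower (2.73% and 2.89% of all genes). Zbp1, a sensor of nucleic acids, was at 174, 169, 154 and 122 CPM in WT and 310, 228, 205 and 246 CPM in Anaef (0.68, SE 0.17, adjusted p = 0.494), without overlap, and DESeq2 gave an adjusted p of 0.0396. Ifit1, an inhibitor of viral translation, was at 48.6 to 82.7 and 67.2 to 114 CPM, and Xaf1 at 41.5 to 69.7 and 63.2 to 101 CPM.

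No proliferation gene passed with edgeR. Of 23 tested cell cycle genes 19 were below 0, with a median of -0.42, 1 lower and 0 higher at an unadjusted p under 0.05, and 2 without overlap; all genes together had 5.62% at that p in either direction. Those 2, the mitotic regulators Cdc20 and Aurka, were low, at 0.640 to 1.07 and 0.103 to 0.481 CPM and at 1.92 to 2.53 and 0.317 to 1.90 CPM. DESeq2, fitted to all genes with a count, called Cdk1, the mitotic kinase, which is named here for that call. The filter used before edgeR had left Cdk1 out (167 counts in WT, 7 in Anaef). Mki67, a marker of dividing cells, was at 87.1, 118, 41.7 and 44.4 CPM in WT and 32.9, 68.1, 43.8 and 55.7 CPM in Anaef (-0.54, SE 0.35, adjusted p = 0.934). WT replicates 1 and 2, the libraries with the largest share of Ig counts (0.875% and 1.87%), were above the rest. The part of dividing cells of other types in these values was not tested.

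For survival, Bcl2 family and death receptor genes had 12 of 17 tested above 0, 0 past an unadjusted p under 0.05 and a median of 0.13; Mcl1 was at 1226 CPM in Anaef replicate 6 and at 473 to 658 CPM in the other 7 libraries. Glycolysis had 12 of 17 below 0, with a median of -0.08 and 0 at that p, and Ldha, lactate dehydrogenase, at 244 ± 25.8 and 211 ± 51.8 CPM. Sterol and fatty acid synthesis had 13 of 21 below 0, with a median of -0.09 and 2 lower at that p: Scd1, a fatty acid desaturase, at 2.80 to 8.70 and 0.211 to 2.82 CPM, and Cyp51, a sterol demethylase, at 10.6 to 21.2 and 7.75 to 11.5 CPM. Ribosomal proteins had 46 of 79 above 0 and a median of 0.03, and TCR variable segments 81 of 133 (162 listed), with a median of 0.09, 3 higher and 0 lower at an unadjusted p under 0.05. The medians of the Ras-ERK, ERK-responsive, activated, ribosomal protein and TCR variable lists turned negative on library size alone, where the median of all genes was -0.08 in place of 0.01.

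**Figure D5:**
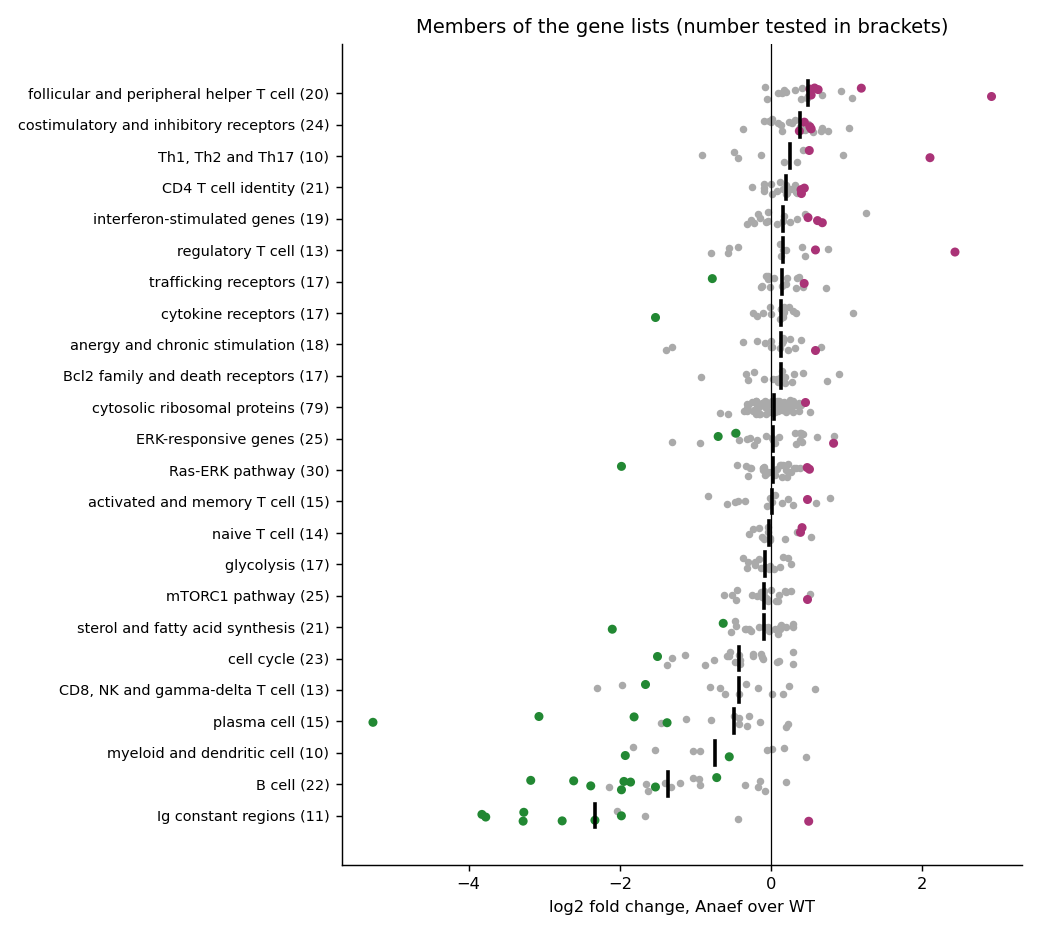
Log2 fold change of Anaef over WT (horizontal axis) for each tested member of 24 gene lists (rows, with the number tested), and the median of each list (black bar). Coloured points have an unadjusted p under 0.05 (purple higher, green lower); Ig constant regions and B cell genes have medians of -2.33 and -1.36, and the lists of CD4 T cell identity and states lie between -0.03 and 0.49.

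What the data could show depended on level. For 1085 protein-coding genes above 100 CPM the median 95% interval of the log2 fold change reached 0.36 to each side, and 96.3% of them had an interval within 2-fold in both directions. Between 10 and 100 CPM the interval reached 0.54 for 5398 genes, with 78.8% within 2-fold, and between 1 and 10 CPM it reached 1.06 for 4123 genes, with 17.2% within 2-fold. Between 1 and 10 CPM most intervals thus reached past 2-fold in at least 1 direction. These intervals are not adjusted for the number of genes and do not say which change would pass the threshold. Above 10 CPM, Bcl9 (log2 fold change 1.01) and Asb18 (-1.21) did not pass with edgeR either (adjusted p = 0.302 and 0.275).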

How the data were processed

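The authors deposited 1 table of raw read counts per gene, with no normalization, for 8 total RNA and 4 RPF libraries, per the labels and the file headers. Total RNA libraries were made with an mRNA bead kit and a Nugen and Nextera XT kit and sequenced as single reads of 50 bases, per the labels' protocols. TopHat 1.4.1, Bowtie and the build GRCm38 are named in the submitters' processing notes; for the counting tool, annotation and strand setting, each not given in the sources used here, nothing can be said, and overlapping and antisense genes, and genes with near copies such as Ig and TCR segments, are therefore uncertain. Of 45669 rows, 44595 matched 1 gene of GENCODE vM21 (GRCm38), 263 held more than 1 identifier and 811 matched none; 26705 had a count in the 8 libraries.

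The 8 libraries were fitted with edgeR 4.0.16 in R 4.3.3 (TMM scaling, filterByExpr, quasi-likelihood F test, Benjamini-Hochberg adjustment over 17876 genes at 0.05), which gives the p-values unless another tool is named. SE and 95% intervals were derived from the F statistic, CPM are on TMM-scaled library sizes, with a prior count of 2 for log2 CPM. RPKM divide the CPM by the annotated exon length. TMM factors were 0.8255 to 1.15, and the common biological coefficient of variation was 0.465. RPF counts were set beside the called genes with no test. For some of the genes nearest to the threshold they were added after values were seen. Gene lists, 28 in all, were described by counts and medians over their tested members. The script was tested on simulated counts. Members and lists were chosen with earlier results of these data known. The rule named Rasgrp1, all called genes, the 10 protein-coding genes nearest to the threshold in each direction, and in each list up to 4 members with the smallest p and the 2 most abundant; Igkv neighbours, Ighe and further members of the Ras-ERK, ERK-responsive, mTORC1, B cell, plasma cell and helper lists were named after their values were seen. Some genes of the lists count in their totals but are not reported here by name. A planned search of promoters was not run. Alternatives were DESeq2 1.42.0, limma-voom (limma 3.58.1), RLE size factors, no filter or a mean of at least 50 counts, nuclear protein-coding genes only, leaving out each library, and leaving out WT replicate 3 with Anaef replicate 6. Library size alone was planned for the count of genes without overlap; for the rest it was chosen after seeing the data, as were ratios of counts with a library left out and DESeq2 calls per list.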

Additional observations from a re-analysis of the deposited data

Results flagged for a closer look

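Of 376 groups of 4 libraries examined (genes named here, list sums and shares of counts, each genotype apart), 29 held 1 library far from the other 3; chance marks about 1 group in 20 by this criterion.

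WT replicate 3 was the highest WT library for Rasgrp1 (609.8 CPM, the others 452.6 to 479.1), Gabrr2 (22.23, others 14.91 to 15.88), Il21r (249.1, others 175.4 to 183.5), Nr4a2 (2.452, others 1.522 to 1.625), Dgka (1666, others 1002 to 1053) and Cd96 (186.4, others 145.6 to 149.4). It was also highest for the summed CPM of the anergy and chronic stimulation list (2555, others 1906 to 1953) and for the percent of counts in pseudogenes (28.2, others 21.09 to 22.26).

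Antibody genes were set apart by single libraries in both genotypes. Ighg3 was at 181 CPM in WT replicate 2 (others 0.1066 to 0.5208) and 57.67 CPM in Anaef replicate 5 (others 0.02851 to 0.4353). Anaef replicate 5 was also highest among Anaef libraries for Ighg2c (214.6, others 46.75 to 70.11) and for the summed CPM of Ig variable segments (547.3, others 278.6 to 312.3). Anaef replicate 8 was highest for the lambda constant regions Iglc2 (1.026, others 0.3787 to 0.4225) and Iglc3 (1.625, others 0.03443 to 0.1604), and WT replicate 4 for Iglc3 in WT (18.99, others 2.105 to 4.245).

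Anaef replicate 6 was the highest Anaef library for Cd3e (1070 CPM, others 681.3 to 712.9) and Icos (205.1, others 118 to 119.4). Anaef replicate 7 was highest for Ube2c, a mitotic enzyme (6.92, others 5.018 to 5.164), Il10ra (3.804, others 0.6273 to 1.136) and Plcg1 (203.3, others 160.9 to 167.3), and lowest for Xbp1 (43.17, others 53.17 to 53.66). Anaef replicate 8 was highest for Mapkap1 (72.62, others 53.5 to 56.6), for Rps3, a ribosomal protein (1711, others 996.8 to 1034), and for Slco5a1 (0.02851, with the others at 0). Anaef replicate 5 was highest for Slc16a5 (91.27, others 83.13 to 84.14) and Mpeg1 (1.268, others 0.1721 to 0.3437). In WT, replicate 4 was lowest for Il2rb, a chain of the IL-2 receptor (57.09, others 80.54 to 83.69), replicate 2 lowest for Rasal3 (410.3, others 450.7 to 453.1), and replicate 1 highest for Pfkl, a glycolytic enzyme (15, others 9.655 to 10.45).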

How the results depend on the processing

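Against 4 genes called by edgeR, DESeq2 called 166 (42 higher, 124 lower), limma-voom 2, a fit on nuclear protein-coding genes 0 (659 at an unadjusted p under 0.05), and the fit without WT replicate 3 and Anaef replicate 6 gave 2. Leaving out 1 library gave 0 to 3 calls. RLE size factors, no filter, a mean of at least 50 counts and library size alone gave 4 each. Genes with all Anaef libraries above all WT libraries numbered 283, 293 with RLE size factors and 156 on library size alone; those below numbered 359, 352 and 340. Of genes at 1 to 10 CPM, 711 had an interval within 2-fold, and 369 to 672 with 1 library left out. No paired analysis was possible because the WT libraries (1 to 4) and the Anaef libraries (5 to 8) share no replicate numbers.

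Measured against the SD between libraries of each list's mean log2 CPM, 9 list medians moved by more: plasma cell (-1.02) and costimulatory and inhibitory receptors (0.145) without WT replicate 3 and Anaef replicate 6, B cell without Anaef replicate 7 (-2.36), CD4 identity without Anaef replicate 8 (0.157), Ras-ERK without WT replicate 4 (0.116), and myeloid at a mean of at least 50 counts (-0.0696). On library size alone CD4 identity was at 0.124, naive at -0.113 and Ras-ERK at -0.0591. The other 404 stayed within that SD, yet 29 of them had the other sign. The lists with such medians ranged over -0.14 to 0.461 (Th1, Th2 and Th17), -0.109 to 0.147 (ERK-responsive), -0.107 to 0.37 (ribosomal proteins), -0.0976 to 0.113 (activated and memory), -0.0254 to 0.181 (TCR variable), -0.165 to 0.0171 (mTORC1), -0.113 to 0.0073 (naive), -0.00723 to 0.194 (anergy), -0.013 to 0.332 (regulatory) and -0.01 to 0.235 (trafficking).

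For single genes, each log2 fold change was counted once per alternative fit. Of these values, 30 changed sign and 2344 kept their direction and side of the threshold. A further 28 passed with DESeq2 where edgeR did not call them, and 32 were lost calls, summed over the 4 called genes and the fits. With libraries left out, singly or WT replicate 3 together with Anaef replicate 6, Ighg3 ran from -7.78 to 5.76; its WT level rests on WT replicate 2. The other values that changed sign were Trdc (-0.408 to 0.2), Ighd (-0.654 to 0.022), Edem1 (-0.0163 to 0.344), Ralgps2 (-0.269 to 0.017), Zfp36 (-0.0354 to 0.209), Nras (-0.024 to 0.172), Vwf (-0.0631 to 0.238), Btla (-0.0728 to 0.238), Foxp3 (-0.0627 to 0.407), Ikzf2 (-0.0278 to 0.184), Cd8b1 (-0.0675 to 0.397), Mapk3 (-0.261 to 0.0626) and Braf (-0.268 to 0.039). On library size alone they were Btla (-0.0198), Nras (-0.0124), Prkcq (-0.0445), Zfp36 (-0.019) and Trdc (-0.118), and with limma-voom Trdc (-0.13). The cause of these shifts was not tested.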
